A study of Mus musculus with 58 samples.

Results

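Diabetic retinas of Ins2Akita mice were compared with wild-type control retinas over all 6 times of day, with zeitgeber time (ZT, hours after lights on) as a term of the fit, so that the genotype difference was read after the difference between hours had been taken out. All 58 libraries of the series entered, 28 diabetic and 30 control. The diabetic group were male mice heterozygous for the Akita allele of Ins2 on the C57BL/6 background, described in the study's methods as consistently hyperglycemic. Controls were male littermates without the diabetic phenotype, whose genotype label is C57/BL/6. Both groups were 4 months old and were kept in a cycle of 12 h of light and 12 h of dark. The groups held 5, 6, 5, 5, 5 and 4 control libraries and 5, 5, 5, 4, 4 and 5 diabetic libraries at ZT 1, 5, 9, 13, 17 and 21. Each library was the ribosomal-RNA-depleted total RNA of retinal tissue taken after perfusion with saline and frozen, in dim red light where it was dark. The comparison asks which transcripts of the whole retina differ with diabetes regardless of the hour, a question the study put beside that of daily rhythms. The Akita mouse is a model of insulin deficiency from a mutant insulin 2 in pancreatic beta cells, so the allele, the hyperglycemia and their duration cannot be told apart here. The study's methods describe the samples at each time point as biological replicates.

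The neural retina is built of rods and cones, which catch light in a stacked membrane organelle, the outer segment, and of the bipolar, horizontal, amacrine and ganglion cells that carry the signal on. Photoreceptors are by far its most common cells and renew their outer segments every day, which takes a large and steady supply of membrane proteins, folded in the endoplasmic reticulum (ER), of lipid and of glucose-derived energy. Muller glia span the tissue and feed and buffer the neurons, and the retinal pigment epithelium behind the photoreceptors recycles their visual pigment. Diabetes is known to harm both the vessels and the neurons of the retina, with reactive glia, inflammatory signals, thickened basement membranes and slower light responses among the changes described.

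Of 52459 gene symbols in the count table, 19120 had a median above 4 normalized counts and were tested, and 919 of them, 4.81%, were called different at a Benjamini-Hochberg adjusted p under 0.05 by edgeR's quasi-likelihood test. The calls were split almost evenly, with 473 genes (2.47%) higher and 446 (2.33%) lower in diabetic retinas. The differences were small. The median size of a called difference was 0.18 on the log2 scale, 657 of the 919 genes (71.5%) differed by less than 20%, 65 by more than 0.5 log2 units and 7 by more than 1. Of the called genes, 702 (76.4%) had the same sign at all 6 time points, as did 12.9% of all genes tested, a comparison with no test, since the calls were made on the same libraries. Protein-coding genes were called in 5.65% of cases (440 higher, 372 lower of 14364) and long non-coding genes in 2.58% (21 higher, 57 lower of 3019). Levels are given as CPM, the reads of a gene relative to all reads of its library in the usual unit, on library sizes scaled by the trimmed mean of M-values, and fold changes are log2 values, diabetic minus control, with the standard error of the fit.

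Depth ran from 7773117 to 22147398 counted reads per library, and each of the 113 pairs of replicates differed by more than counting error. Rod transcripts, the mark of retina, were abundant in all libraries, and the summed level of 25 rod genes lay between 59190 and 83750 CPM. Ins2 itself was close to undetected, at most 0.375 CPM and at 0 in 29 of 58 libraries, and since the Akita allele is still transcribed its level is no check of the labels. Some libraries stood apart. The summed level of 20 lens genes was 3416 CPM in control ZT1 replicate 6, 2625 CPM in control ZT21 replicate 2 and 2306 CPM in control ZT17 replicate 5, against at most 87.08 CPM in any other library. Diabetic ZT13 replicate 5 held 116900 CPM of structural small RNAs and mitochondrial ribosomal RNA, where the other libraries reached at most 78480. Diabetic ZT17 replicate 3 had 435.8 CPM of Egr1, the highest of all. Without the 3 lens-containing libraries 688 genes were called, 354 higher and 334 lower, of which 658 were among the 919.

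The smallest p-value belonged to Rnf123, the catalytic subunit of an E3 ubiquitin ligase complex known to act on the cell-cycle inhibitor p27 and on the NF-kB precursor p105. It is encoded at chromosome 9, 108051534 to 108083346, minus strand (GRCm38). Its level ran from 247 to 370.1 CPM (median 295) in control and from 213 to 261 CPM (median 235) in diabetic retinas. The 2 ranges overlapped only at their edge, and 20 of 28 diabetic libraries lay below the lowest control library. Rnf123 fell by 20.2% (log2 fold change -0.33 ± 0.029 (SE), adjusted p = 4.88e-12, edgeR), and the difference lay between -0.40 and -0.29 at the 6 time points. The messages of its known substrates were not called, with Cdkn1b, which encodes p27, at -0.01 (adjusted p = 0.957) and Nfkb1 at 0.06 (adjusted p = 0.221). Exons of Gmppb and Mst1 overlap Rnf123 on the other strand, and whether the counting used strand is not given in the sources used here. Gmppb was at -0.09 (adjusted p = 0.356) and its median level was 7.37 CPM in controls.

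Fndc1, a fibronectin type III domain protein, was the next gene that fell. It ran from 35.4 to 60.4 CPM (median 46.3) in control and from 24.3 to 46.3 CPM (median 32.8) in diabetic retinas, and 20 of 28 diabetic libraries lay under all controls. The fold change was -0.45 ± 0.042 (adjusted p = 2.63e-11). Nxnl1, the rod-derived cone viability factor that photoreceptors make to sustain cones, ran from 219 to 279 CPM (median 249) in control and from 172 to 241 CPM (median 217) in diabetic retinas. No diabetic library reached the control median, and Nxnl1 fell by 13.7% (log2 fold change -0.21 ± 0.028 (SE), adjusted p = 3.13e-07). Its paralog Nxnl2 was lower too, by less (-0.10 ± 0.029, adjusted p = 0.0267). Other lower genes among the 15 with the smallest p were Fam160a1 (-0.18 ± 0.023, adjusted p = 3.13e-07), Zfp365 (-0.18 ± 0.026, adjusted p = 3.22e-06), Traf3ip3, a partner of the adaptor Traf3 (-0.32 ± 0.047, adjusted p = 3.39e-06), Wdr66 (-0.25 ± 0.037, adjusted p = 9.07e-06) and the transcriptional coregulator Tcf20 (-0.25 ± 0.036, adjusted p = 2.54e-06). The rest were mostly non-coding or unnamed transcripts.

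Several lower transcripts lie opposite a coding gene. Ube4bos1 runs antisense to the ubiquitin ligase gene Ube4b and had 22.8 CPM in the median control and 16.9 in the median diabetic library (-0.48 ± 0.058, adjusted p = 9.4e-08). A further antisense transcript of the locus, Ube4bos3, was also lower (-0.43 ± 0.1, adjusted p = 0.00681), while Ube4b was at 0.01 (adjusted p = 0.941). Etohd2, which overlaps Tut7 and Isca1 on the other strand, fell from a median of 4.39 to 3.15 CPM (-0.48 ± 0.06, adjusted p = 2.38e-07). Gm42697, opposite Egf, was lower too (-0.38 ± 0.052, adjusted p = 1.25e-06), as were Gm16262 (-0.50 ± 0.068, adjusted p = 1.09e-06) and Gm15348 (-0.42 ± 0.058, adjusted p = 1.28e-06), for which the annotation gives no overlap. The non-coding E230001N04Rik went the other way and had the largest positive fold change of all called genes. It ran from 0.219 to 1.47 CPM (median 0.741) in control and from 0.567 to 5.35 CPM (median 1.37) in diabetic retinas, with 14 of 28 diabetic libraries above every control (log2 fold change 1.25 ± 0.16 (SE), adjusted p = 3.13e-07).

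Fstl3 led the genes that rose. It encodes a secreted follistatin-like protein that binds activin and myostatin and keeps them from their receptors, and lies at chromosome 10, 79777272 to 79782630, plus strand. The level ran from 3.49 to 6.9 CPM (median 4.67) in control and from 5.78 to 12.5 CPM (median 7.83) in diabetic retinas. All 28 diabetic libraries were above the control median and 19 were above the highest control. The fold change was 0.77 ± 0.074 (adjusted p = 4.14e-11) and ranged from 0.57 at ZT13 to 0.89 at ZT21. Its relatives and ligand were not called: Fst was at -0.23 (adjusted p = 0.572), Fstl1 at 0.04 (adjusted p = 0.787) and Inhba, which encodes an activin subunit, at 0.12 (adjusted p = 0.322). Of 26 tested genes of TGF-beta and activin signalling, Fstl3 was the 1 member higher and the activin receptor Acvr2b the 1 member lower (-0.10 ± 0.028, adjusted p = 0.0228).

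Slc38a2, the sodium-coupled neutral amino acid transporter SNAT2, ran from 99.2 to 135 CPM (median 113) in control and from 103 to 213 CPM (median 144) in diabetic retinas. It was above all controls in 21 of 28 diabetic libraries (0.39 ± 0.049, adjusted p = 2.23e-07). Trpc6, a diacylglycerol-gated cation channel, ran from 8.42 to 19.3 CPM (median 15.5) in control and from 14.5 to 26.6 CPM (median 21) in diabetic retinas, with 20 of 28 above all controls (0.44 ± 0.06, adjusted p = 1.08e-06). Its relative Trpc1 was not called (0.05, adjusted p = 0.54). Ube2t, the ubiquitin-conjugating enzyme of the Fanconi anaemia DNA repair pathway, rose from a median of 1.58 to 2.99 CPM and was above all controls in 20 libraries (0.77 ± 0.098, adjusted p = 2.38e-07). Selenbp1, a selenium-binding protein that oxidises methanethiol, rose from 5.07 to 7.29 CPM (0.67 ± 0.096, adjusted p = 3.24e-06). Nfkbia, the inhibitor that holds NF-kB in the cytosol and is itself an NF-kB target, ran from 16.7 to 28.4 CPM (median 20.5) in control and from 17.9 to 41.3 CPM (median 25.2) in diabetic retinas, ranges that largely overlapped (0.31 ± 0.044, adjusted p = 3.22e-06). Further genes that rose were the phospholipid flippase Atp8b2 (0.24 ± 0.033, adjusted p = 1.09e-06), Rab3il1 (0.39 ± 0.062, adjusted p = 2.79e-05), Tmem116 (0.38 ± 0.056, adjusted p = 5.83e-06), Mtmr11 (0.32 ± 0.054, adjusted p = 7.25e-05), Dennd2a (0.18 ± 0.03, adjusted p = 8.16e-05), the glycoprotein Olfm4 (0.31 ± 0.053, adjusted p = 9.15e-05) and Zfp217 (0.26 ± 0.044, adjusted p = 0.000106).

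**Figure D1:**
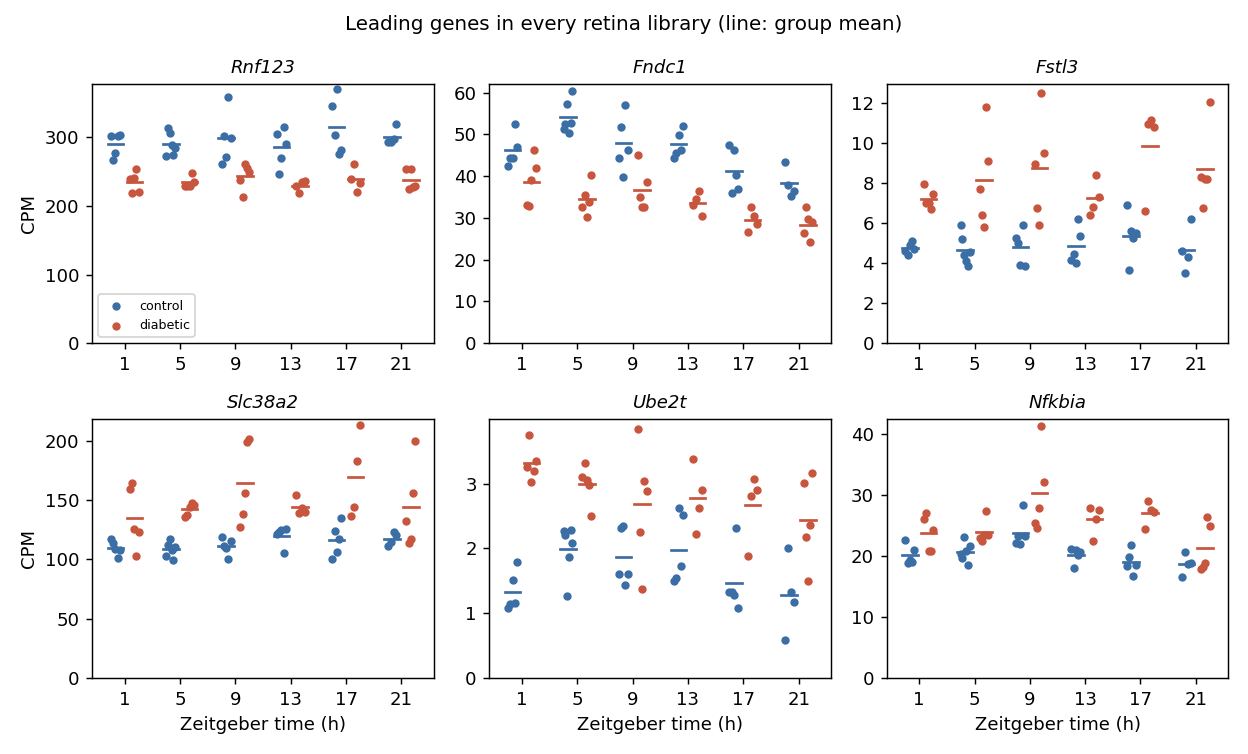
Levels in CPM (vertical axes, from 0) of 6 of the called genes with the smallest p-values, against zeitgeber time in hours; each point is 1 library, blue for control and red for diabetic, and each line is the mean of a group at a time point. Rnf123 and Fndc1 were lower and Fstl3, Slc38a2, Ube2t and Nfkbia higher in diabetic retinas at each of the 6 time points by group fit, and no diabetic library of Rnf123 reached the control median of 295 CPM.

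Genes were then read in functional and cell type lists. The lists are described by counts and medians, with the median of all 19120 genes at 0.00205 for comparison, and each count reads against the 4.81% of all genes called, 2.47% higher and 2.33% lower. The rod list held 25 tested genes of the phototransduction cascade and outer segment, and 11 of them were lower and 1 higher, against a background of 2.33% lower. Its median was -0.0913, and 22 members were negative. Rods signal through the G protein transducin, a phosphodiesterase and a cyclic-nucleotide-gated channel, and arrestin helps to end the response. Sag, which encodes rod arrestin, ran from 2284 to 3759.6 CPM (median 3038) in control and from 2049.7 to 3558 CPM (median 2672) in diabetic retinas and fell by 9.92% (-0.15 ± 0.032, adjusted p = 0.00202). The ranges overlapped, with 22 of 28 diabetic libraries not above the control median. The transducin subunits Gngt1 (-0.16 ± 0.034, adjusted p = 0.00176) and Gnb1 (-0.10 ± 0.027, adjusted p = 0.0187), the phosphodiesterase subunit Pde6a (-0.10 ± 0.021, adjusted p = 0.00236), the calcium sensor Rcvrn (-0.16 ± 0.041, adjusted p = 0.0166) and the disc-rim protein Rom1 (-0.14 ± 0.036, adjusted p = 0.0148) were lower. The transducin subunit Gnat1 was at -0.15 (adjusted p = 0.0787) and the phosphodiesterase subunit Pde6b at -0.03 (adjusted p = 0.603). Gnb5, part of the complex that switches transducin off, was the member that rose (0.07 ± 0.02, adjusted p = 0.021), and its partner Rgs9 was at 0.02 (adjusted p = 0.752). The rod-specifying factors Nrl (-0.03, adjusted p = 0.669) and Crx (-0.02, adjusted p = 0.762) were not called.

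In bulk tissue, fewer cells of a type and less RNA per cell cannot be told apart. The summed rod level had a median of 71450 CPM in control (59770 to 83750) and 67410 CPM in diabetic retinas (59190 to 76280), so the groups overlapped widely. The count of lower rod genes was not stable: it was 6 without the 3 lens-containing libraries, 13 with lens, pigment epithelium and structural RNA levels as covariates, 17 with surrogate variables (terms for hidden variation estimated from the counts), 4 without the time term, between 3 and 10 with 1 time point left out, and between 6 and 12 with 1 library left out. It went to 6 or 7 without any 1 of control ZT1 replicates 1 and 6, ZT9 replicate 5, ZT13 replicate 3, ZT17 replicates 3 and 5 or ZT21 replicate 3, or of diabetic ZT1 replicate 5, ZT5 replicate 5, ZT9 replicate 2, ZT17 replicates 4 and 5 or ZT21 replicates 4 and 5.

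Of 13 tested members of the cone list 5 were lower (38.5%, against 2.33% of all genes) and none was higher, with a median of -0.117. Gnb3, a cone transducin subunit that ON bipolar cells also use, ran from 191 to 316 CPM (median 249) in control and from 194 to 261 CPM (median 223) in diabetic retinas, and 26 of 28 diabetic libraries were not above the control median (-0.17 ± 0.029, adjusted p = 0.000116). Gnat2, the cone transducin alpha subunit, ran from 92.6 to 121 CPM (median 108) and from 83.4 to 110.1 CPM (median 99.4) (-0.13 ± 0.026, adjusted p = 0.00115). The cone phosphodiesterase subunits Pde6h (-0.14 ± 0.027, adjusted p = 0.00037) and Pde6c (-0.12 ± 0.031, adjusted p = 0.0149) and the medium-wavelength opsin Opn1mw (-0.17 ± 0.048, adjusted p = 0.0262) also fell. The short-wavelength opsin Opn1sw was at -0.10 (adjusted p = 0.141) and cone arrestin Arr3 at 0.00 (adjusted p = 0.989), and the cone-specifying factors Thrb (-0.04, adjusted p = 0.322) and Rxrg (-0.01, adjusted p = 0.967) were not called. The count was 4 without the 3 lens-containing libraries, 7 with the covariates, 5 or 6 with any 1 library left out and between 3 and 5 with 1 time point left out.

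Photoreceptor genes outside these lists, singled out after their values were seen, include Kcnv2, the potassium channel subunit that sets the photoreceptor's inner segment current. It ran from 554 to 746 CPM (median 668) in control and from 478 to 703 CPM (median 578) in diabetic retinas, and 9 of 28 diabetic libraries lay below all controls (-0.18 ± 0.03, adjusted p = 4.12e-05). Impg1 of the matrix between photoreceptors (-0.09 ± 0.022, adjusted p = 0.00631), Cdhr1, a cadherin at the base of the outer segment (-0.11 ± 0.026, adjusted p = 0.0089), and Samd7, a repressor in rods (-0.15 ± 0.043, adjusted p = 0.0257), were lower.

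Of 17 tested visual cycle genes 3 were lower (17.6%, against 2.33% of all genes). The count was between 1 and 5 with 1 time point left out, 7 with the covariates, 10 with surrogate variables and 1 without the time term. Abca4, the retinoid transporter of the outer segment rim, is a photoreceptor gene (-0.09 ± 0.021, adjusted p = 0.00856). Lrat (-0.68 ± 0.14, adjusted p = 0.00215) and Rpe65 (-0.54 ± 0.15, adjusted p = 0.0263), which store and isomerise retinoid, belong to the pigment epithelium, whose summed level varied between libraries. Lrat ran from 1.75 to 20.4 CPM (median 9.25) in control and from 1.45 to 14.7 CPM (median 5.78) in diabetic retinas and overlapped widely. The summed level of 14 pigment epithelium genes ran from 61.28 to 397.3 CPM (median 208.8) in control and from 55.88 to 457.1 CPM (median 152.1) in diabetic retinas. Of 13 tested pigment epithelium genes, Lrat and Rpe65 were the called ones. The defining genes Rgr (-0.30, adjusted p = 0.222) and Ttr (-0.27, adjusted p = 0.34) were not called. The part of pigment epithelium carried along with the retina in these 2 differences was not tested beyond the covariate fit. Rpe65 was no longer called in that fit. Its pigment epithelium covariate is a sum that includes Lrat and Rpe65 themselves, so the lost call cannot decide the question.

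Of 16 bipolar cell genes 4 were lower and 1 higher, against 2.33% and 2.47% of all genes, with a median of -0.0814. The ON bipolar receptor Grm6 (-0.14 ± 0.035, adjusted p = 0.00897) and nyctalopin, Nyx, which anchors the transduction complex (-0.13 ± 0.034, adjusted p = 0.017), fell. Trpm1, the channel that Grm6 closes, was called with all libraries (-0.09 ± 0.029, adjusted p = 0.0451), but not in 30 of the 58 fits that left out 1 library. Rgs7, which speeds the ON response, rose (0.09 ± 0.025, adjusted p = 0.0288). With 1 library left out the count of lower members lay between 2 and 4, and with 1 time point left out between 0 and 5. It was 9 with the covariates, 11 with surrogate variables and 0 without the time term. The other neuron lists were called near the background. Chat, the enzyme that makes acetylcholine in starburst cells, rose (0.19 ± 0.052, adjusted p = 0.018) and was the 1 called gene of 20 amacrine genes. None of 15 ganglion cell, 6 horizontal cell, 14 Muller glia and 5 astrocyte genes was called.

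**Figure D2:**
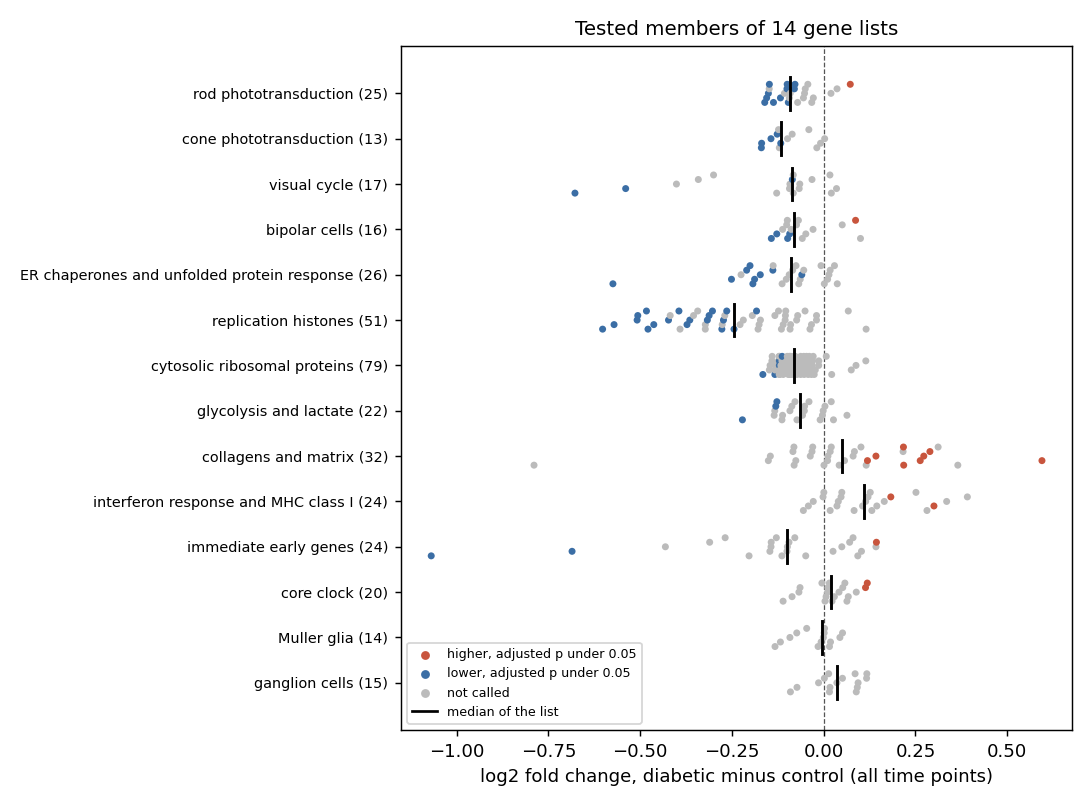
Log2 fold change, diabetic minus control over all time points, of each tested member of 14 lists (1 point a gene; red higher, blue lower, grey not called), with the number tested in parentheses and the list median as a black bar. Rod, cone, ER chaperone, histone and ribosomal protein lists have medians below 0, between -0.244 for histones and -0.0814 for ribosomal proteins, and members of the collagen and matrix list were called on the right of 0.

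Of 26 tested genes of ER folding and the unfolded protein response 9 were lower and none higher, against 2.33% of all genes, with a median of -0.0893. The unfolded protein response senses misfolded protein in the ER and raises chaperone transcription through the factors ATF6, XBP1 and ATF4. Chaperone promoters are known to carry the ER stress element, a CCAAT box, bound by NF-Y, and a CCACG box, bound by ATF6, at a fixed distance. The CCAAT box followed after 9 bases by CCACG was searched on both strands in the 250 bases before the start of each gene (RefSeq, GRCm38.p6). It stood in 20 of 12269 promoters of tested genes (0.163%), in 9 of 22 promoters of the ER list (40.9%) and in 6 of the 9 promoters of its lower members. The 4 promoters below are shown because their genes are lower ER chaperones that hold it. They are written 5′ to 3′ on the strand of the gene, with the CCAAT and CCACG boxes of the element, or their reverse complements ATTGG and CGTGG, in capitals.
Hspa5, chr2:34771840-34772089, plus strand: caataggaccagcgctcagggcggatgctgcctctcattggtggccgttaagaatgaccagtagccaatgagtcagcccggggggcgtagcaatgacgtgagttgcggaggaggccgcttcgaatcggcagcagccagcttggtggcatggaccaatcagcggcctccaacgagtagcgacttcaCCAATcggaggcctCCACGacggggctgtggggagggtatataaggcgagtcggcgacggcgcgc
Hsp90b1, chr10:86705445-86705694, minus strand: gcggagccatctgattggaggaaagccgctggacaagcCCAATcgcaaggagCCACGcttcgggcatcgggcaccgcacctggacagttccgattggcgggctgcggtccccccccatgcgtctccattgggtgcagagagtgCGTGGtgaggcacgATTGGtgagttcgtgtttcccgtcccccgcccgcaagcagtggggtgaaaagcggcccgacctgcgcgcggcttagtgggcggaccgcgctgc
Calr, chr8:84846932-84847181, minus strand: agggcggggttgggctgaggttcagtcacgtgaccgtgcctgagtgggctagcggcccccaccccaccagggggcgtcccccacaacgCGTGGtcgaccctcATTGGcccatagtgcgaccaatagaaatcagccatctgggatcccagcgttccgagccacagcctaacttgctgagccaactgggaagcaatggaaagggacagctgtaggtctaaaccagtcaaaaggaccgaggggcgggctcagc
Pdia6, chr12:17266339-17266588, plus strand: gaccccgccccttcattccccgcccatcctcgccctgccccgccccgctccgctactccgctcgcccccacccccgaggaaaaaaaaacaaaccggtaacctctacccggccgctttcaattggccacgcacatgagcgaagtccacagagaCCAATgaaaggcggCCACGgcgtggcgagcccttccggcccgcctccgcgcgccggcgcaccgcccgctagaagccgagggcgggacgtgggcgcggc

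In Hspa5 the element lies 65 to 47 bases before the start, in Pdia6 98 to 80 bases before it, in Calr 162 to 144 bases before it on the other strand, and Hsp90b1 holds it both at 212 to 194 and, on the other strand, at 107 to 89 bases before the start. Creld2 and Derl3 were the other lower members with a match. Matches stood as well in 3 of 13 promoters of ER list members that were not called, Canx, Dnajc3 and Syvn1. Over all 20 genes with a match 7 were lower and 2 higher (Acacb and Tdrd9), 12 were negative, and the median fold change was -0.0188. The match describes letters and not binding.

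Calr, the calcium-binding chaperone calreticulin, ran from 184 to 461 CPM (median 291) in control and from 193 to 307 CPM (median 242) in diabetic retinas. The ranges overlapped, yet 25 of 28 diabetic libraries were not above the control median, and Calr fell by 16% (-0.25 ± 0.054, adjusted p = 0.00215). Pdia6, a disulfide isomerase, ran from 45.3 to 78.5 CPM (median 58.1) and from 36.8 to 61.3 CPM (median 50.9), with 1 diabetic library above the control median (-0.21 ± 0.038, adjusted p = 0.000229). Hspa5 encodes BiP, the main ER chaperone, and ran from 123 to 312 CPM (median 182) and from 105 to 203 CPM (median 162) (-0.19 ± 0.051, adjusted p = 0.02). Hsp90b1 (-0.19 ± 0.048, adjusted p = 0.00963), Pdia3 (-0.17 ± 0.041, adjusted p = 0.00724), the BiP cochaperone Dnajb11 (-0.14 ± 0.031, adjusted p = 0.00331) and Creld2 (-0.20 ± 0.047, adjusted p = 0.00538) fell, and Sel1l, of the ER degradation complex, fell by less (-0.06 ± 0.017, adjusted p = 0.0264). Derl3 was at -0.57 with a median of 0.564 CPM in controls and lost its call without control ZT21 replicate 3 (adjusted p = 0.059 by edgeR). Pdia5, a further isomerase chosen after its values were seen, was lower as well (-0.20 ± 0.033, adjusted p = 8.87e-05). Xbp1 was at -0.11 (adjusted p = 0.132), the cell-death factor Ddit3 at -0.02 (adjusted p = 0.893) and Canx at -0.09 (adjusted p = 0.104).

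The median of the ER list differed with the hour, which was not tested for the list. It was -0.159, 0.0018, 0.0175, -0.0956, -0.171 and -0.0989 at the 6 times in order from ZT1. Pdia6 was at -0.33, -0.02, 0.04, -0.22, -0.46 and -0.29 at these times, and the test that its genotype difference varied with time had an unadjusted p of 0.00013 and an adjusted p of 0.57 in edgeR. No gene of the list passed that test after adjustment. The count of lower members was 9 without the 3 lens-containing libraries, 15 with the covariates, 16 with surrogate variables and 4 without the time term. It lay between 8 and 12 with any 1 library left out, and between 3 and 11 with 1 time point left out. With a block for replicate number within each time point it was 7, and Hspa5 was not called. Of 24 cytosolic heat shock genes 2 were called lower: Hsph1 (-0.14 ± 0.044, adjusted p = 0.0455), which lost its call in 29 of 58 fits without 1 library, and Cryab, which is also a lens gene (-1.07 ± 0.33, adjusted p = 0.0415). Cryab lost its call in 17 of these fits and was at 0.024 without the 3 lens-containing libraries. Hsp90aa1 (-0.09, adjusted p = 0.107) and Hsp90ab1 (-0.09, adjusted p = 0.172) were not called.

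**Figure D3:**
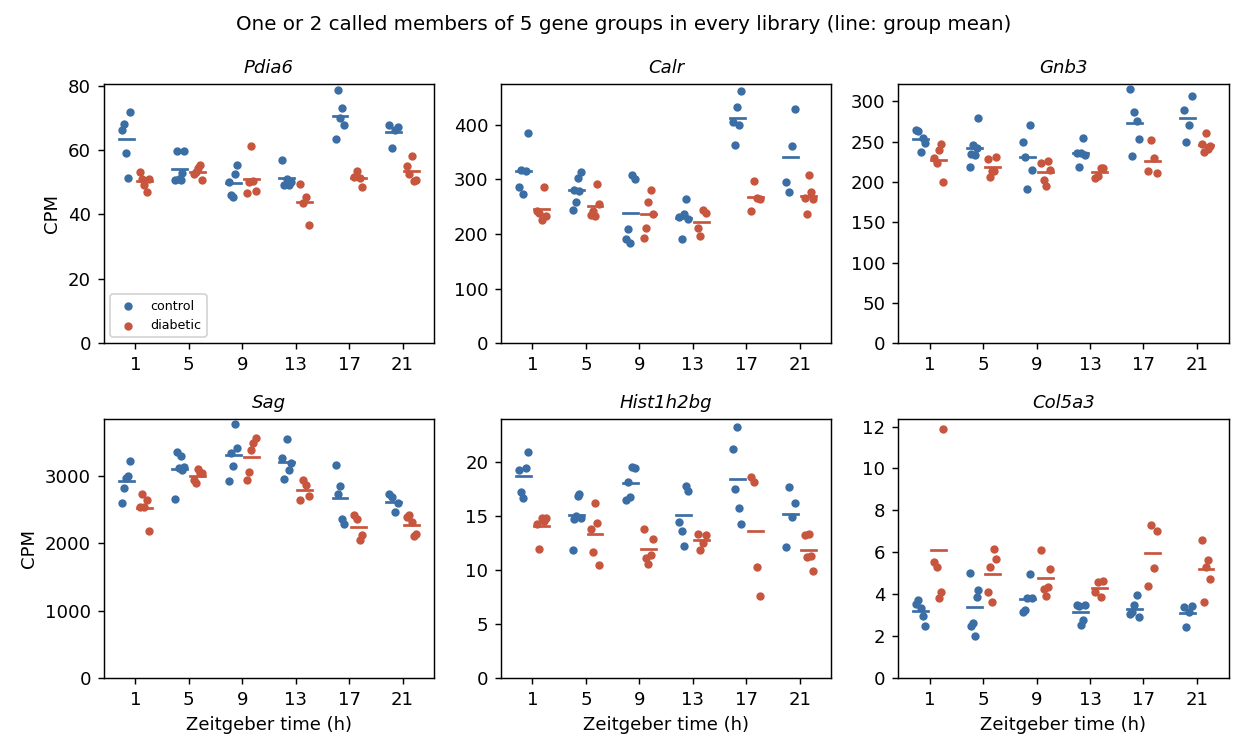
Levels in CPM (from 0) against zeitgeber time in hours for 2 ER chaperones (Pdia6, Calr), a cone and a rod gene (Gnb3, Sag), a replication histone (Hist1h2bg) and a collagen (Col5a3); each point is 1 library (blue control, red diabetic) and each line a group mean. The groups were closest for Pdia6 at ZT5 (-0.02 on the log2 scale) and for Calr at ZT9 (-0.02), and both genes were farthest apart at ZT17, at -0.46 and -0.63.

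Of 51 tested replication histone genes 19 were lower (37.3%, against 2.33% of all genes) and none higher, 49 were negative and the median was -0.244. As a class these genes package newly made DNA. Their messages typically end in a stem-loop in place of a poly(A) tail, and libraries of total RNA therefore hold them. How the message of each member ended was not measured. The lower members were 8 of 14 H2B, 6 of 11 H2A, 2 of 6 H1, 2 of 12 H4 and 1 of 8 H3 genes. Many histone promoters hold a TATA box. TATAAA stood on either strand in 6.8% of 12269 promoters of tested genes and in 52.2% of 46 histone promoters. The promoter of Hist1h2bg, the lower H2B gene with the smallest p, is shown with TATAAA in capitals.
Hist1h2bg, chr13:23571150-23571399, plus strand: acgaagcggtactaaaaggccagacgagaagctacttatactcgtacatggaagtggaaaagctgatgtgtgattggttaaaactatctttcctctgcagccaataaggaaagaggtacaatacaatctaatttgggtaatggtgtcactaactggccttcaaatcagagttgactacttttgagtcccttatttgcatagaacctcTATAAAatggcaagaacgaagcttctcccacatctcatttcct

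TATAAA lies 43 to 38 bases before the start of Hist1h2bg. Of the histone list's lower members 9 of 17 promoters held it (52.9%), about the share of the whole list. Hist1h2bb ran from 17.6 to 38.2 CPM (median 23.4) in control and from 11.7 to 25.3 CPM (median 17.9) in diabetic retinas, with 12 of 28 diabetic libraries below all controls (-0.42 ± 0.071, adjusted p = 8.82e-05). Hist1h2bg ran from 11.9 to 23.2 CPM (median 16.8) and from 7.63 to 18.6 CPM (median 13), with 11 below all controls (-0.37 ± 0.061, adjusted p = 7.03e-05). Hist1h2bc (-0.26 ± 0.045, adjusted p = 0.000116), Hist1h2be (-0.27 ± 0.047, adjusted p = 0.000126), Hist1h2ae (-0.60 ± 0.12, adjusted p = 0.000729) and the linker histone Hist1h1c (-0.24 ± 0.068, adjusted p = 0.0223) were lower too. Reads of near-identical histone copies can be shared between them, so single histone values are uncertain. Slbp, whose protein binds the histone stem-loop, was higher, a gene chosen after its values were seen (0.13 ± 0.034, adjusted p = 0.0118).

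The summed level of the histone list ran from 878.4 to 1708 CPM (median 1298) in control and from 852.8 to 2350 CPM (median 1111) in diabetic retinas. The 2350 CPM came from diabetic ZT13 replicate 5, the library rich in structural RNAs, and 28 histone genes were lower without it. Without the 3 lens-containing libraries 13 were lower, with the covariates 31, and with 1 time point left out between 10 and 20. The part of non-polyadenylated RNA in this difference was not tested beyond these fits. The list's median was below 0 at ZT1, 5, 9, 17 and 21, lowest at ZT9 (-0.45), and at 0.0626 at ZT13, the time of the library named above. Of 26 E2F and DNA replication genes, E2f3 (0.19 ± 0.033, adjusted p = 0.000179) and Cdk2 (0.30 ± 0.091, adjusted p = 0.0425) rose and the helicase subunit Mcm4 fell (-0.17 ± 0.045, adjusted p = 0.0131). Cdk2 overlaps the pigment gene Pmel on the other strand, had a median of 1.96 CPM in controls and lost its call in 28 of 58 fits without 1 library. Cdkn1a, which encodes the cyclin-dependent kinase inhibitor p21, rose from a median of 1.83 to 2.62 CPM (0.51 ± 0.11, adjusted p = 0.00393).

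Cytosolic ribosomal protein genes lay mostly just below 0. Of 79 tested 74 were negative, with a median of -0.0814, and 5 were lower (6.33%, against 2.33% of all genes), among them Rps6 (-0.13 ± 0.04, adjusted p = 0.0365) and Rps3 (-0.11 ± 0.034, adjusted p = 0.04) of the small subunit, whose calls were lost in 10 and 20 of 58 fits without 1 library. The count moved to between 1 and 11 with 1 library left out, and 36 of the 58 libraries moved it by more than 1.5 times. It was 1 without the 3 lens-containing libraries, 21 with the covariates, 42 with surrogate variables, 1 without the time term and between 0 and 5 with 1 time point left out. Translation genes outside the list, chosen after their values were seen, were lower with more reads behind them. Eef1a1, the factor that brings aminoacyl-tRNA to the ribosome, ran from 614 to 1018 CPM (median 800.3) in control and from 611 to 892 CPM (median 723) in diabetic retinas, and 24 of 28 diabetic libraries were not above the control median (-0.16 ± 0.036, adjusted p = 0.00378). Eef2 (-0.14 ± 0.037, adjusted p = 0.0191), Eef1g (-0.12 ± 0.029, adjusted p = 0.00861) and Tpt1 (-0.15 ± 0.035, adjusted p = 0.0049) were lower, and Eef1b2 was not called (-0.04, adjusted p = 0.675).

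Of 22 glycolysis and lactate genes 3 were lower, Pfkl, a phosphofructokinase (-0.13 ± 0.037, adjusted p = 0.0267), Pgam1 (-0.13 ± 0.033, adjusted p = 0.0145) and the lactate exporter Slc16a3 (-0.22 ± 0.061, adjusted p = 0.0207), and the list's median was -0.0653. They are 13.6% of the list, against 2.33% of all genes called lower. Hk2 was at -0.09 (adjusted p = 0.259), Ldha at -0.09 (adjusted p = 0.111) and Pkm at -0.07 (adjusted p = 0.412). The count of lower members was between 3 and 6 with 1 library left out and was 0 without ZT1 or without ZT21. It was 9 with the covariates, 12 with surrogate variables, 8 with GC content and length offsets and 0 without the time term. It rose to 6 without control ZT13 replicate 2, control ZT9 replicate 3, diabetic ZT17 replicate 3 or diabetic ZT13 replicate 5, and to 5 without diabetic ZT9 replicates 3 or 4 or diabetic ZT5 replicate 4. The list's median was -0.152 at ZT1, -0.124 at ZT17 and -0.119 at ZT21. It lay between -0.0115 and 0.00858 at ZT5, ZT9 and ZT13. Ndufb3 (-0.11 ± 0.032, adjusted p = 0.0239) was the 1 lower gene of 37 nuclear complex I subunits. No member was called among 35 subunits of complexes III to V, 7 messages of the mitochondrial genome and 32 genes of pyruvate dehydrogenase and the citric acid cycle.

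Txnip, which restrains glucose uptake, rose, while its arrestin-domain relative Arrdc3 fell. Txnip is known as a target of the glucose-sensing factor MondoA and ran from 3.84 to 10.4 CPM (median 7.61) in control and from 5.37 to 14.3 CPM (median 8.98) in diabetic retinas (0.31 ± 0.072, adjusted p = 0.0049). Its fold change was 0.09 over the light hours and 0.57 over the dark hours, and the test of that difference had an unadjusted p of 0.000645 and an adjusted p of 0.699 in edgeR. Arrdc3 fell from a median of 94.9 to 76.3 CPM (-0.28 ± 0.068, adjusted p = 0.00873), and Arrdc4 was at -0.01 (adjusted p = 0.959). These were the called genes of 16 for glucose sensing. Of 30 insulin and IGF signalling genes Igfbp3 was called (0.44 ± 0.13, adjusted p = 0.0375), at a median of 1.23 CPM in controls, and it lost the call in 12 of 58 fits without 1 library. None of 15 polyol, hexosamine and glycation genes and none of 29 antioxidant and metallothionein genes was called.

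Among 26 amino acid transporters, Slc1a5, a glutamine exchanger, rose beside Slc38a2 (0.17 ± 0.048, adjusted p = 0.0287). Slc38a1 (-0.02, adjusted p = 0.788) and Slc38a3 (0.03, adjusted p = 0.631) were not called. Slc38a2 is a known target of ATF4, the factor that answers amino acid shortage. Of 26 ATF4 targets 2 rose, Slc38a2 and Atf4 itself (0.16 ± 0.051, adjusted p = 0.0466), and 1 fell, Phgdh, the first enzyme of serine synthesis (-0.36 ± 0.099, adjusted p = 0.0221), together 11.5% of the list against 4.81% of all genes. Atf4 lost its call in 38 of 58 fits without 1 library.

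Lipid genes were called in both directions, 19% of the fatty acid synthesis list and 10% of the fatty acid oxidation list, against 4.81% of all genes. Of 21 fatty acid synthesis genes, Scd2, a desaturase, ran from 360.2 to 524 CPM (median 469.5) in control and from 357 to 498 CPM (median 429.9) in diabetic retinas and fell (-0.13 ± 0.026, adjusted p = 0.00114). The elongases Elovl1 (-0.19 ± 0.051, adjusted p = 0.0191) and Elovl4, which photoreceptors need for very long chain fatty acids (-0.12 ± 0.037, adjusted p = 0.0384), also fell, the call of Elovl4 being lost in 17 of 58 fits without 1 library. Acacb, whose product holds back fatty acid oxidation, rose (0.24 ± 0.071, adjusted p = 0.0326), and its call was lost in 6 of 58 such fits. Of 30 genes of fatty acid oxidation and ketone use Acat1 (0.12 ± 0.03, adjusted p = 0.0155) and Acot1 (0.41 ± 0.11, adjusted p = 0.0174) rose and Cpt2 fell (-0.14 ± 0.04, adjusted p = 0.025). The cholesterol exporter Abca1 rose (0.15 ± 0.034, adjusted p = 0.00274), the 1 called gene of 24 for cholesterol.

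Of 32 tested collagen and matrix genes 8 were higher and none lower, against a background of 2.47% higher, with a list median of 0.0494. Collagens of type IV and laminins build the basement membranes of retinal vessels and the inner limiting membrane, while types I, V and VI are fibrillar or microfibrillar. Col6a1 ran from 19.7 to 61.6 CPM (median 42.8) in control and from 36.6 to 66.6 CPM (median 49.8) in diabetic retinas, with 21 of 28 diabetic libraries above the control median (0.26 ± 0.061, adjusted p = 0.00542). Col9a1 (0.29 ± 0.066, adjusted p = 0.00468), Col5a1 (0.27 ± 0.065, adjusted p = 0.00724), the laminin chain Lamc1 (0.12 ± 0.029, adjusted p = 0.00724), the matrix-binding protein Sparc (0.14 ± 0.038, adjusted p = 0.0169) and Col1a1 (0.59 ± 0.16, adjusted p = 0.015) rose. Col1a1 is also a marker of sclera. The 12-gene sum of cornea and sclera ran from 7.232 to 48.6 CPM in control and from 8.866 to 49.76 CPM in diabetic retinas. Of 6 tested genes of that list 5 were positive, with a median of 0.176. Its median at ZT13 was 1.02, and the collagen list's median was highest at that time too (0.145). The part of this tissue in the collagen difference was not tested. Col1a2 (0.31, adjusted p = 0.314), Col3a1 (0.00, adjusted p = 1) and Col4a1 (-0.08, adjusted p = 0.761) were not called, whereas Col4a3, also of type IV, was higher (0.22, adjusted p = 0.0451, edgeR). Col5a3, not in the list but among the 15 genes that rose with the smallest p, ran from 2.02 to 5.03 CPM (median 3.38) in control and from 3.63 to 11.9 CPM (median 4.98) in diabetic retinas, all 28 of them above the control median (0.65 ± 0.092, adjusted p = 2.41e-06). Lama5, chosen after its value was seen, was also higher (0.18 ± 0.045, adjusted p = 0.00856). The count of higher members was 8 without the 3 lens-containing libraries, between 6 and 8 with any 1 library left out and between 3 and 7 with 1 time point left out. Col6a3 was at -1.35 (adjusted p = 0.0362) over all libraries and at 0.11 (adjusted p = 0.872, edgeR) without the 3 lens-containing ones.

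Vascular genes were called near the background: 1 of 23 endothelial and pericyte genes, Acta2, was lower (-0.37 ± 0.11, adjusted p = 0.0398) and lost its call in 17 of 58 fits without 1 library, and 1 of 18 VEGF and angiopoietin genes, the lymphangiogenic factor Vegfc, was higher (0.29 ± 0.082, adjusted p = 0.0279). Vegfa was at 0.04 (adjusted p = 0.599) and no gene of 23 for the hypoxia response was called. Fzd4, the receptor for norrin on retinal endothelium, rose (0.15 ± 0.039, adjusted p = 0.00968). Runx1, a transcription factor singled out after its values were seen, rose from a median of 1.09 to 1.78 CPM (0.51 ± 0.12, adjusted p = 0.00631).

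Of 20 reactive gliosis genes 2 rose and 2 fell, 20% of the list against 4.81% of all genes, and the list's median was -0.00312. With 1 time point left out 1 or 2 rose and between 0 and 2 fell. Stat3, which drives the glial response to injury cytokines, ran from 59.9 to 84.4 CPM (median 68) in control and from 67.1 to 97.4 CPM (median 73.8) in diabetic retinas, and 25 of 28 diabetic libraries were above the control median (0.14 ± 0.025, adjusted p = 0.000192). Nes, a filament of immature and reactive glia, was called with all libraries (0.21 ± 0.06, adjusted p = 0.0277) but not without diabetic ZT5 replicate 4 (adjusted p = 0.052 by edgeR). Fgf2, a survival factor for photoreceptors (-0.17 ± 0.042, adjusted p = 0.012), and the cytokine receptor Il6st (-0.07 ± 0.017, adjusted p = 0.0154) fell. Gfap, the classical marker of stressed Muller glia, was at 0.28 (adjusted p = 0.147) and Vim at 0.02 (adjusted p = 0.921). All 5 astrocyte genes, Gfap among them, were positive, with a median of 0.159. None of the 5 was called by edgeR or DESeq2, and 3 had an unadjusted p under 0.05. None of 14 Muller glia genes was called by edgeR or DESeq2, 3 had an unadjusted p under 0.05, and their median was -0.00399.

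Of 21 microglia and complement genes the fractalkine receptor Cx3cr1 was lower (-0.24 ± 0.064, adjusted p = 0.0176), and of 10 cytokine and adhesion genes Nfkbia was the called one. Tnfaip3, a ubiquitin-editing enzyme that like Nfkbia restrains NF-kB, fell, and ran from 349.9 to 503 CPM (median 428) in control and from 308 to 472 CPM (median 378) in diabetic retinas (-0.17 ± 0.027, adjusted p = 5.29e-05). It was chosen after its values were seen. The subunits Rela (0.00, adjusted p = 0.995) and Nfkb2 (0.09, adjusted p = 0.632) were not called. Of 24 interferon and MHC class I genes Irf7 (0.30 ± 0.08, adjusted p = 0.0161) and H2-K1 (0.18 ± 0.049, adjusted p = 0.0181) rose (8.33%, against 2.47% of all genes), and the list's median was 0.11, with 20 members positive. Neither was called without the libraries of ZT13, and H2-K1 was not called without those of ZT17 or of ZT21. Irf7 was at 0.84 at ZT13 and between 0.12 and 0.29 at the other times. Tap2, which loads peptides for MHC class I, was higher (0.26 ± 0.045, adjusted p = 0.000128), whereas Tap1 (0.11, adjusted p = 0.477) and B2m (0.00, adjusted p = 0.999) were not called.

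Among 21 cell death genes, those that fell include the antiapoptotic Bcl2 (-0.19 ± 0.039, adjusted p = 0.00108) and its antagonist Bcl2l11 (-0.10 ± 0.027, adjusted p = 0.0242), and Cdkn1a rose. The glucocorticoid-induced cochaperone Fkbp5 rose (0.23 ± 0.044, adjusted p = 0.000628), 1 of 2 called genes of 16 in that list, with Cdkn1a the other and Sgk1 at -0.01 (adjusted p = 0.918). Nmnat1, which makes NAD in the nucleus and is a gene of inherited retinal degeneration, was lower (-0.18 ± 0.054, adjusted p = 0.032), as was the mitochondrial NAD kinase Nadk2 (-0.11 ± 0.033, adjusted p = 0.0362), and both lost their calls in some fits without 1 library, 4 and 7 of 58. Of 35 lysosomal genes Tpp1 (-0.10 ± 0.024, adjusted p = 0.00765) and Lamp1 (-0.08 ± 0.024, adjusted p = 0.0479) fell, the latter uncalled in 39 of 58 such fits. None of 40 proteasome, 28 autophagy and 20 synaptic genes was called. In all, 17 lists with 301 tested genes had no call in edgeR. Of these genes 40 had an unadjusted p under 0.05, and DESeq2 called 2 of them, Rbm3, a cold-inducible RNA-binding protein (0.11, adjusted p = 0.0663 in edgeR), and the autophagy receptor Nbr1 (-0.05, adjusted p = 0.096 in edgeR).

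Of 20 tested core clock genes, the repressors Cry2 (0.11 ± 0.029, adjusted p = 0.0116) and Cry1 (0.12 ± 0.032, adjusted p = 0.0197) were higher, and none was lower. These are 10% of the list, against 2.47% of all genes called higher, and the list's median was 0.0191. Cry1 lost its call in 7 of 22 alternative fits, among them those with no time term, with the covariates or without ZT5, ZT17 or ZT21. Cry2 lost its call in 5 of 22, among them those without ZT5, ZT17 or ZT21. Cry2 ran from 123 to 168 CPM (median 140.1) in control and from 133 to 196 CPM (median 151) in diabetic retinas, ranges that overlapped widely. Arntl (0.09, adjusted p = 0.0507), Per1 (0.06, adjusted p = 0.664), Per2 (0.05, adjusted p = 0.683), Nr1d1 (-0.06, adjusted p = 0.632) and Dbp (-0.09, adjusted p = 0.318) were not called, and no gene of 11 for dopamine and melatonin signalling was.

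Several of the largest fold changes came from genes whose levels jump between libraries. Egr1, an immediate early gene that neurons switch on within minutes of activity, ran from 14.6 to 340.3 CPM (median 81.2) in control and from 10.3 to 436 CPM (median 28) in diabetic retinas. Only 3 of 28 diabetic libraries were above the control median, but 1 of them, diabetic ZT17 replicate 3, was the highest of all 58 (-1.07 ± 0.25, adjusted p = 0.0047). Fos followed and ran from 7.11 to 73.8 CPM (median 34.3) and from 10.9 to 91.1 CPM (median 20.7) (-0.69 ± 0.15, adjusted p = 0.00304). Ier3 was called higher (0.14 ± 0.043, adjusted p = 0.0386), but not in 19 of 58 fits that left out 1 library. Of 24 immediate early genes these 3 were called. Jun (0.03, adjusted p = 0.868), Junb (-0.08, adjusted p = 0.701), Fosb (0.08, adjusted p = 0.686), Nr4a1 (-0.31, adjusted p = 0.109) and Npas4 (-0.20, adjusted p = 0.246) were not. The median of the list was -0.43 at ZT9 and between -0.08 and 0.10 at the other times. Without the libraries of ZT9 the list had 1 lower member and a median of -0.029. With the dark hours alone it had 0 lower members, and with the light hours alone 2.

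Crystallins gave the most extreme values and rested on 3 control libraries. Cryaa was at -3.88 (adjusted p = 0.0437), Crybb1 at -2.53 (adjusted p = 0.0144) and Crybb3 at -2.20 (adjusted p = 0.0159) over all libraries. Their medians were 0.388, 0.4 and 0.501 CPM in control and 0.198, 0.42 and 0.591 CPM in diabetic retinas. Without the 3 lens-containing control libraries the fold changes were 1.07, 0.63 and 0.44 and none was called. No lens difference between the genotypes was therefore read from these genes.

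**Figure D4:**
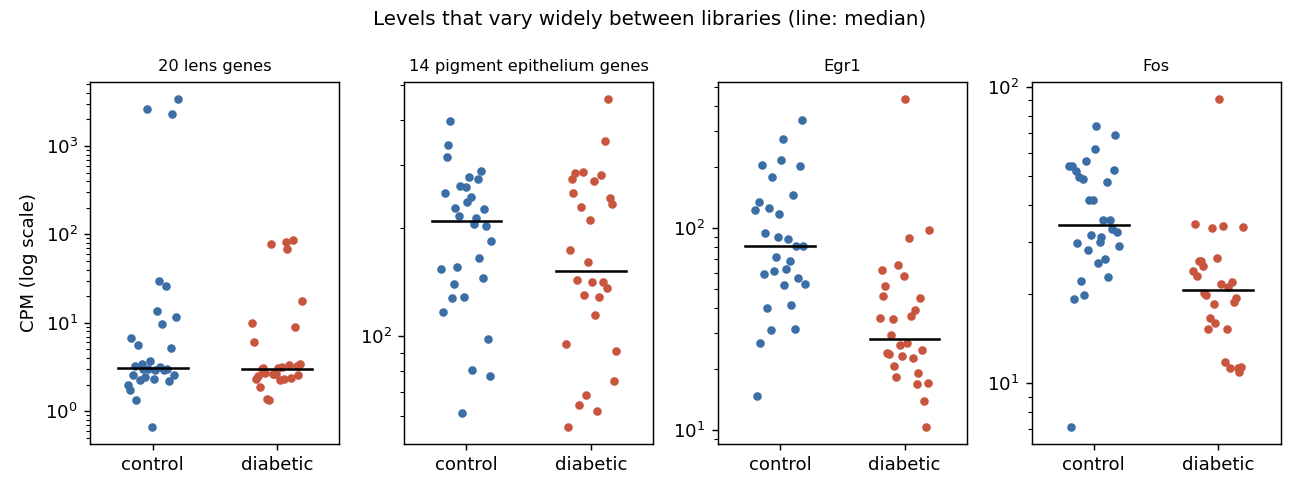
Summed level of 20 lens genes, summed level of 14 pigment epithelium genes, and the levels of Egr1 and Fos, in CPM on log axes, in each control and diabetic library (points) with the group median (line). Lens genes stood at 2306 to 3416 CPM in 3 control libraries, and the Egr1 median was 81.2 CPM in control and 28 CPM in diabetic retinas.

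Whether the genotype difference itself depended on the time of day was tested gene by gene. No gene was called for an interaction of genotype with the 6 time points in edgeR, with 514 genes at an unadjusted p under 0.05 and a smallest adjusted p of 0.194 (Kif4). DESeq2 called 2, the kinesin Kif4 (adjusted p = 0.00514) and Samd7 (adjusted p = 0.041). No gene was called for an interaction with light against dark either, with 666 at an unadjusted p under 0.05 and a smallest adjusted p of 0.0519 (Cog6 and Rbm19), and DESeq2 called these 2 (adjusted p = 0.00961). With the light hours alone 94 genes were called, 29 of them higher, and with the dark hours alone 126, of which 67 were higher.

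**Figure D5:**
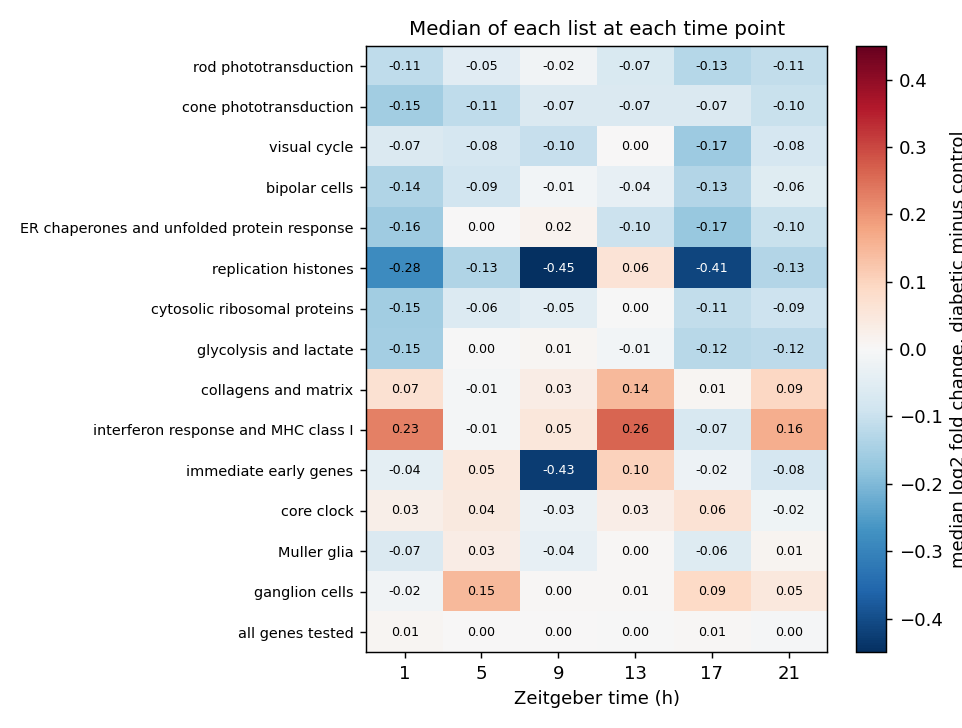
Median log2 fold change, diabetic minus control, of the tested members of 14 lists and of all genes tested at each zeitgeber time in hours; red is higher and blue lower in diabetic retinas. Rod, cone and bipolar medians were below 0 at all 6 times, ER chaperones were lowest at ZT17 (-0.171) and ZT1 (-0.159), and histones at ZT9 (-0.45) and ZT17 (-0.412). These medians were not tested.

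Since the Akita allele lies on chromosome 7 at Ins2 (142678656 to 142743381), genes near it were counted as well. Of 118 genes tested within 8 Mb, 6 were called (5.08%, against 4.81% of all genes), with Ano1 (0.24 ± 0.058, adjusted p = 0.00754), Irf7, Lrrc27 (0.29 ± 0.068, adjusted p = 0.00536), Cracr2b (0.34 ± 0.1, adjusted p = 0.0396) and Tcerg1l (0.26 ± 0.078, adjusted p = 0.0418) higher and Chid1 lower (-0.15 ± 0.038, adjusted p = 0.011). The calls of Cracr2b and Tcerg1l were lost in 21 and 28 of 58 fits without 1 library.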

How the data were processed

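The authors aligned paired-end reads of ribosomal-RNA-depleted total RNA with STAR (version 2.7.4a) to the mouse genome (GRCm38.p5, genes of Gencode M15) and counted reads per gene with HTSeq (version 0.11.1). They deposited 1 table of raw counts, whole numbers without normalization or filter, for 52459 gene symbols in 58 libraries, of which 15226 symbols had no read. Their own differential expression results were not used. Whether counting used strand is not given in the sources used here. Column names gave genotype, time point and replicate, matched to the sample titles.

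Genes with a median above 4 normalized counts over all libraries (DESeq2 size factors, version 1.42.0) were tested, 19120 in all. The genotype difference was fitted by edgeR's quasi-likelihood method (version 4.0.16, R 4.3.3) with TMM factors and a term for each time point, two-sided, with Benjamini-Hochberg adjustment over all genes tested and a threshold of 0.05. Interactions of genotype with time point and with light or dark phase were tested in the same way. The common biological coefficient of variation was 11.7%. Depth was 7773117 to 22147398 counts, which leaves genes of a few CPM with wide counting error. The method was tested on counts simulated without time effects, with 50 changed genes of each size. It recovered 26% of 1.1-fold, 58% of 1.2-fold, 96% of 1.5-fold and 100% of 2-fold changes. Of 147 calls there, 7 were false. A list with no call can therefore still hold small differences. Coordinates are those of Gencode M21 (GRCm38), matched by symbol for 48082 genes and by an older symbol for 202. Promoters are RefSeq (GRCm38.p6), the first listed where a gene has several, with 12269 of the tested genes matched.

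The genes named are the 15 in each direction with the smallest p, up to 4 called members of each list or else the member with the smallest p, up to 2 members of a list with the highest level, the 5 with the smallest p in each interaction, and paralogs or partners of called genes. Kcnv2, Impg1, Cdhr1, Samd7, Pdia5, Slbp, Eef1a1, Eef2, Eef1g, Tpt1, Lama5, Runx1, Tnfaip3, Tap2, Col6a3, the genes near Ins2 and further members of lists beyond that number were chosen after their values were seen. Some genes that these rules name are not reported here. The comparison and the gene lists were chosen with earlier results of these data known.

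Alternatives were limma-voom (version 3.58.1), DESeq2, its size factors in edgeR, other filters, no term for time, robust dispersions, surrogate variables (sva, version 3.50.0), a block for replicate number, light or dark hours alone, and each library or time point left out. Fits without the 3 lens-containing libraries, with lens, pigment epithelium and structural RNA levels as covariates, and with GC content and length offsets were added after seeing the data.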

Additional observations from a re-analysis of the deposited data

How the results depend on the processing

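Against 919 called genes (473 higher, 446 lower), 740 to 1007 were called with any 1 of the 58 libraries left out (379 to 515 higher, 353 to 492 lower). Without the time term 572 were called (303 higher, 269 lower), with surrogate variables 3299 (1701 and 1598), with GC content and length offsets 1543 (714 and 829), and with no filter on low counts 313 were higher. With lens, pigment epithelium and structural RNA covariates 698 were lower. The light hours alone gave 94 (29 higher, 65 lower) and the dark hours alone 126 (67 and 59), from fewer libraries. Without ZT1 601 were called (302 higher), without ZT5 514 (284 and 230), without ZT17 387 (191 and 196) and without ZT21 453 (220 and 233). Fits without a time point also used fewer libraries, and the cause of these shifts was not tested. DESeq2 called 1080 genes and limma-voom 949. DESeq2 called 2 genes for the interaction with time point and 2 for that with light phase, where edgeR called 0.

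With a block for replicate number 948 genes were called, and 1 for the interaction with light phase (adjusted p = 0.0412, edgeR). Same-numbered libraries of the 2 genotypes at a time point deviated together in 21 of 26 pairs (r over 0.1; range -0.519 to 0.839), and 27 of 52 libraries correlated best with their own number, a hint from the data of a shared structure. The median r was 0.2995, and in 5 pairs r was not over 0.1. The labels do not say what a number marks, so the main fit did not take the numbers as pairs. A structure shared by same-numbered libraries therefore stays unaccounted for in that fit. A block within each time point gave 1153, which kept 779 of the 919 calls. In that fit 21 ribosomal protein genes and 8 glycolysis genes were lower, against 5 and 3, and of the called genes named Hspa5 (adjusted p = 0.0542, edgeR), Acot1 (adjusted p = 0.0501, edgeR), Vegfc, Slc1a5, Sel1l, Acacb, Acta2, Cdk2, Cracr2b, Col6a3 and the lens genes Cryaa, Cryab, Crybb1 and Crybb3 were not called.

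Fold changes that reversed were those of lens genes and Col6a3. With surrogate variables Cryaa was at 0.94, Crybb1 at 0.14 and Crybb3 at 0.10. Without the 3 lens-containing libraries Cryaa was at 1.07, Cryab at 0.024, Crybb1 at 0.63, Crybb3 at 0.44 and Col6a3 at 0.11, and with the covariates Cryaa was at 0.028 and Crybb1 at 0.037. Over 156 called genes followed through the alternatives, 2727 values kept direction and call, 686 kept direction and lost the call, and 10 reversed. Of the values with 1 library left out 8593 kept the call, 455 lost it and 0 reversed. Col4a3 was not among the genes followed. Rnf123, Fndc1, Fstl3, Slc38a2, Nxnl1, Trpc6, Col5a3, Nfkbia and Ube2t kept their calls in every alternative run.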

Other observations

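Abundant nuclear long non-coding RNAs, which make up much of a total RNA library, gave no call. None of 8 passed edgeR's test (1 at an unadjusted p under 0.05, 0 in DESeq2), with Malat1 at -0.01 (adjusted p = 0.97) and Miat at 0.13 (adjusted p = 0.11). Of the cold-inducible RNA-binding proteins, whose messages follow body temperature, Rbm3 was at 0.11 (adjusted p = 0.066) and Cirbp at 0.06 (adjusted p = 0.43). Among neurotrophic factors and receptors Fgf2 was the 1 called gene of 17, and Ngfr was at 0.00 (adjusted p = 1). Blood transcripts were near 0 in both groups, with 7 blood genes summing to a median of 0.387 CPM in control and 0.488 CPM in diabetic retinas.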
